A study of Mus musculus with 16 samples.

Results

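Open chromatin was described here around 10 neuropeptide genes (*Calca*, *Calcb*, *Grp*, *Cck*, *Npy*, *Tac1*, *Gal*, *Nts*, *Vip* and *Cartpt*) in mouse small cell lung cancer (SCLC). ATAC-seq, in which the Tn5 transposase inserts sequencing adaptors into accessible DNA, had been run on tumor cells of *TKO*;*Hes1* GFP/+ mice. The members are the listed peaks whose centre has the start site of 1 of these genes as its nearest protein-coding start site in the basic GENCODE annotation of mm10. They number 32 of the 80367 peaks in the deposited lists. Of these, 26 belong to the closed list (less accessible in GFP-high cells) and 6 to the opened list (more accessible in GFP-high cells).

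All mice carried floxed *Rb*, *p53* and *p130*, to be deleted in the lung by an adenovirus that expresses Cre from the CMV promoter (Ad-CMV-Cre), which is active in many cell types. Both groups were sorted from the resulting tumors, and the deletions were not checked here in the sorted cells. GFP reads out the endogenous *Hes1* locus, a Notch target. By the study's methods, tumors were induced in adult mice and collected some months later, and the tumors of each mouse were pooled. Cells bearing CD45, CD31 or TER-119 (leukocyte, endothelial and erythroid surface proteins) were gated out, and CD24 was the marker for positive selection. The GFP-high group (hes1-gfp status positive, non-NE cells) and the GFP-neg group (hes1-gfp status negative, neuroendocrine or NE cells) each hold 4 libraries from 3 mice, of which 1 mouse gave 2 pairs, and each of the 8 libraries was run on 2 lanes. The deposited values are those of the whole comparison, so neither a value per library nor an SD or n can be given, library depths are unknown, and no test across mice could be made here. Membership of a list rests on the authors' own limits, and peaks within those limits were not analysed here.

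Neuropeptides are short signalling peptides cut from larger precursors, stored in dense core vesicles and released on stimulation to act on G protein-coupled receptors. In the lung they are made by pulmonary neuroendocrine cells (PNECs), rare epithelial sensor cells that sit in clusters in the airways and contact sensory nerves, and by the nerves themselves. SCLC has the features of PNECs, and gastrin-releasing peptide and calcitonin gene-related peptide (CGRP) are long-used markers of both. Chromatin accessibility at the gene of a precursor is not a measure of its mRNA or of the peptide.

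Most listed peaks of the neuropeptide genes were less accessible in non-NE than in NE cells. Of their 32 listed peaks, 26 (81.2%, Wilson 95% interval 64.7 to 91.1%, counting error only) were closed, while 49.2% of all listed peaks were closed. The other 6 were opened, as were 50.8% of all listed peaks. Per length of genome, closed peaks were 1.15 times and opened peaks 0.257 times as dense as over all protein-coding genes, so on this measure the share reflects few opened peaks more than many closed ones. The closed ratio depended on the stretch, with 1.61 (opened 0.389) in windows of 100 kb to each side of the start sites. Without *Tac1* and *Npy*, an alternative added after the values were seen, it was 1.82 (opened 0.321). At least 1 closed peak was assigned to 9 of the 10 genes, against 42.2% of the 21840 protein-coding genes, and at least 1 opened peak to 3 of the 10 (*Npy*, *Gal* and *Cartpt*), against 52.3%. All 9 genes with a listed peak had more closed than opened peaks, which held for 37.5% of the 14581 protein-coding genes with a listed peak. None of the 9 had more opened than closed peaks, against 54.9%. Only closed peaks were found at 6 of these 9 genes (*Calca*, *Calcb*, *Grp*, *Cck*, *Nts* and *Vip*), against 21.7% of the same 14581 genes. *Cck* depends on the assignment. With 1 start site per gene it had 3 closed and 6 opened peaks and so turned to the opened side, while the other 8 genes kept more closed than opened peaks. Within 100 kb of the start sites, whichever gene the peaks were assigned to, opened peaks also lay near *Cck* (4 closed and 7 opened), *Nts* (7 and 5), *Grp* (7 and 3) and *Calca* (8 and 2), but not near *Calcb* (8 and 0) and *Vip* (4 and 0). *Cck*, *Nts* and *Vip* had a single listed peak each, and of the 3731 protein-coding genes with a single listed peak 34.6% had a closed one. Peaks are not replicates of a condition, and the nearest-start rule can place a peak at a gene that it does not regulate.

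**Figure D1:**
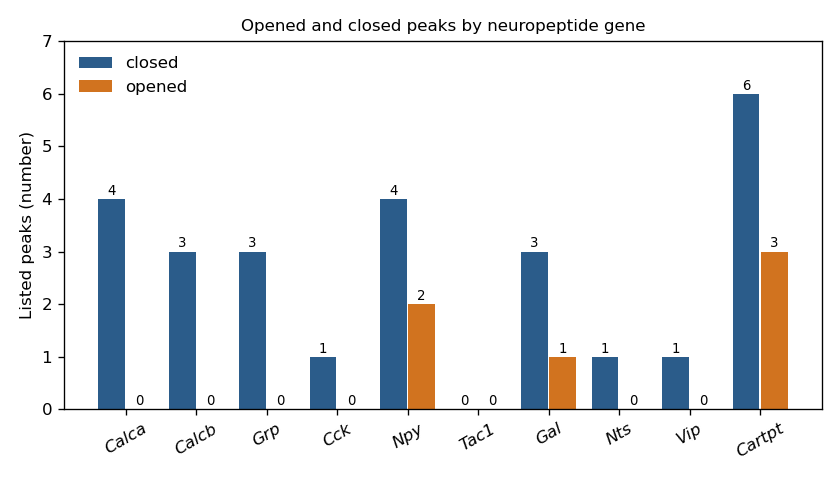
The number of listed peaks (vertical axis) assigned to each of the 10 neuropeptide genes (horizontal axis), with closed peaks in blue and opened peaks in orange. *Cartpt* had 6 closed and 3 opened peaks, *Npy* 4 and 2, and *Gal* 3 and 1, while *Calca*, *Calcb*, *Grp*, *Cck*, *Nts* and *Vip* had closed peaks only and *Tac1* had no listed peak.

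A promoter peak was defined as a listed peak centred within 1 kb of an annotated start site. A closed promoter peak was present at 4 of the 10 genes (*Calca*, *Grp*, *Gal* and *Cartpt*), against 8.45% of all protein-coding genes, and an opened promoter peak at 0 of the 10, against 26.6%. The 4 closed promoter peaks were 340 to 419 bp wide, where the median of the 2663 closed promoter peaks of protein-coding genes was 256 bp. Their GC content ran from 56.8 to 67.8% around a median of 60.3% for all such peaks. The ratio of observed to expected CpG dinucleotides ran from 0.37 at *Calca* to 0.836 at *Gal*, with a median of 0.537 for all such peaks, so these promoters span CpG-poor and CpG-rich sequence.

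Most closed peaks lay within 20 kb of a start site of their gene and no opened peak did. Of the 26 closed peaks, 18 (69.2%) were centred within 20 kb of the start site, against 32.8% of all closed peaks. None of the 6 opened peaks was (0 of 6), against 53.0% of all opened peaks. The median distance was 12162 bp (range 16 to 167955 bp) for the closed peaks of the neuropeptide genes and 42432 bp for all closed peaks. For opened peaks these medians were 83381 bp (range 21895 to 143651 bp) and 17467 bp. The ranges overlap, and at *Npy* 3 of the 4 closed peaks lay farther out than the nearer opened one. The closed peaks fell upstream of the start site in 17 of 26 cases, and 2 lay inside another protein-coding gene (*Mccc2* and *Tesmin*). Intergenic positions were found for 16 of 26 closed peaks, against 35.2% of all closed peaks, and for 6 of 6 opened peaks, against 29.1% of all opened peaks.

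**Figure D2:**
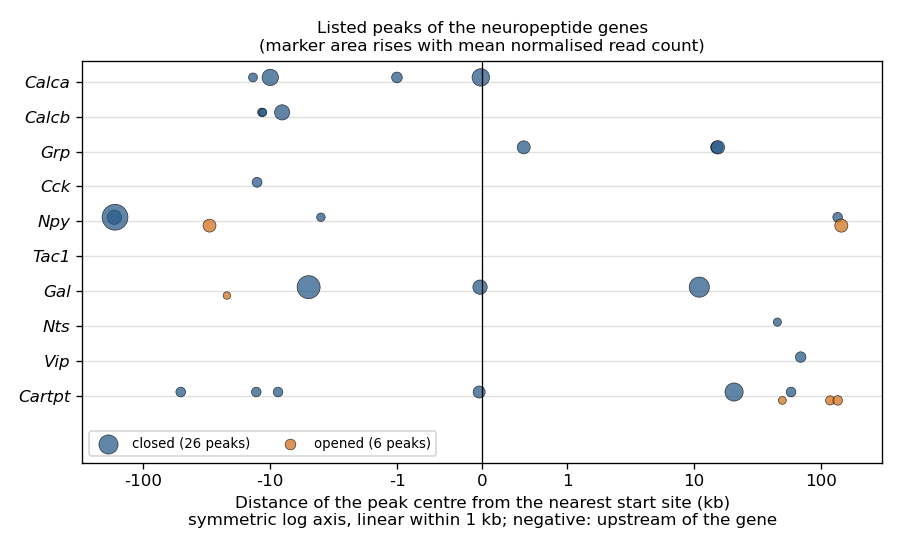
Each of the 32 peaks by the distance of its centre from the nearest start site of its gene (horizontal axis, kb, symmetric log scale that is linear within 1 kb, negative values upstream) and by gene (vertical axis), with closed peaks in blue and opened peaks in orange, and marker area rising with the mean normalised read count. The 6 opened peaks sit between 21895 and 143651 bp from a start site, while 18 of the 26 closed peaks sit within 20 kb.

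*Calca* and *Calcb* encode the precursors of the alpha and beta forms of CGRP, and *Calca* also that of calcitonin. The genes lie on chromosome 7 of mm10 (*Calca*, ENSMUSG00000030669.13, chr7:114631478-114636357, minus strand, and *Calcb*, ENSMUSG00000030666.11, chr7:114718643-114723365, plus strand). They point away from each other with start sites 82286 bp apart. All 7 listed peaks between these start sites were closed, 4 nearest to *Calca* and 3 nearest to *Calcb*. They formed a cluster at each gene, with 56833 bp between the clusters that held no listed peak.

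The *Calca* promoter peak (chr7:114636158-114636497) was centred 16 bp upstream of a start site and overlaps the start of the gene. It had a mean normalised read count of 89.2, which is the authors' mean over all libraries of both groups and so shows how many reads a peak rests on, not a level in either group. A further closed peak at chr7:114637249-114637480 was centred 1008 bp upstream, just outside the promoter distance, with a mean count of 26.6. The next lay 9982 bp upstream (chr7:114646110-114646568) with a mean count of 76.9, and the last 13645 bp upstream (chr7:114649910-114650094) with a mean count of 15.1. The outermost peak thus rested on far fewer reads than the promoter peak. The sequence shown for *Calca* covers the 250 bases before its start (chr7:114636358-114636607, GRCm38.p6, minus strand), which the promoter peak overlaps. Capitals mark TGACG, the core of the cAMP response element (CRE) through which CREB-type factors act.
Calca promoter: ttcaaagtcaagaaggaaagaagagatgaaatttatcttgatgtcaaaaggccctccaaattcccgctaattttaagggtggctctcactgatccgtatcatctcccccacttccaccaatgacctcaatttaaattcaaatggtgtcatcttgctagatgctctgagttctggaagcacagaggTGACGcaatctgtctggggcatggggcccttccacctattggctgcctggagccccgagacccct

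Peaks near *Calcb* were centred 8055 bp (chr7:114710320-114710855, mean count 65.0), 11423 bp (chr7:114707175-114707264, mean count 9.94) and 11644 bp (chr7:114706928-114707070, mean count 12.6) upstream of its start site. The outer pair is separated by 104 bp, lies within 1 kb of the start of the non-coding pseudogene *Gm15500* and rests on few reads. No listed peak lay at the *Calcb* promoter itself. The 3 peaks share the AP-1 motif TGACTCA (searched on both strands), which FOS and JUN dimers bind, once in each of the outer peaks and at 2 positions in the strongest. These sequences are shown on the plus strand (GRCm38.p6) with the AP-1 motif in capitals, the outer peaks whole and the strongest peak as its central 300 bp. They were chosen after their motifs were seen.
Calcb peak chr7:114706928-114707070: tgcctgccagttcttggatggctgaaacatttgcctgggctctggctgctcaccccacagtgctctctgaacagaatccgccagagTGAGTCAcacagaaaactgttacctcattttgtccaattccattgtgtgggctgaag
Calcb peak chr7:114707175-114707264: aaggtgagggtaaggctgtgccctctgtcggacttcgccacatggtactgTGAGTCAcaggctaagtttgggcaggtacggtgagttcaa
Calcb peak chr7:114710438-114710737: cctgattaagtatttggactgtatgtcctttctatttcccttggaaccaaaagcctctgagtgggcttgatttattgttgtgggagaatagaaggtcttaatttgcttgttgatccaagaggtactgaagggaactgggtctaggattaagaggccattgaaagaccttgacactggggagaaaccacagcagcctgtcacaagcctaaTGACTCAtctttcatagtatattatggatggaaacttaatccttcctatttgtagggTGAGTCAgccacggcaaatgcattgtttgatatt

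*Gal* (ENSMUSG00000024907.7, chr19:3409915-3414544, minus strand) encodes galanin, an inhibitory peptide of neurons and endocrine cells. Its closed promoter peak (chr19:3414295-3414649) was centred 25 bp upstream of a start site with a mean count of 56.5. The other closed peaks carried more reads, with a mean count of 163 at 4986 bp upstream (chr19:3419274-3419786, above 96.3% of all closed peaks) and of 122 at 10977 bp downstream (chr19:3403213-3403727). The downstream peak lies 6188 bp past the end of *Gal*, in an intron of *Tesmin*, so its gene is uncertain. The single opened peak of *Gal* (chr19:3436369-3436508) was centred 21895 bp upstream and had the lowest mean count of all 32 peaks, 7.68. The upstream closed peak is shown as its central 300 bp (chr19:3419380-3419679, GRCm38.p6, minus strand) because it held 3 AP-1 motifs, in capitals.
Gal upstream closed peak: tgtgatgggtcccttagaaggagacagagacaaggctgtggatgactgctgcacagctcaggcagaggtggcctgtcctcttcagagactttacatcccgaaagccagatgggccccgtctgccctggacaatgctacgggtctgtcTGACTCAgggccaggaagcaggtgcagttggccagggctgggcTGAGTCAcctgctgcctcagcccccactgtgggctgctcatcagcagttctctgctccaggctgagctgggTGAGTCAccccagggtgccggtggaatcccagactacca

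*Cartpt* (ENSMUSG00000021647.7, chr13:99898489-99901091, minus strand), the precursor of the CART peptides of hypothalamus and gut nerves, had the most listed peaks of the 10 genes. Its promoter peak (chr13:99900501-99900851) was closed, centred 35 bp upstream of a start site, with a mean count of 36.7. The closed peak with the most reads lay 20606 bp downstream of the start site (chr13:99879753-99880317, mean count 97.3). The other 4 closed peaks, at 8674, 12865 and 50500 bp upstream and 57811 bp downstream, had mean counts between 19.2 and 19.9. The peak 50500 bp upstream falls in an intron of *Mccc2*. All 3 opened peaks lay downstream, at 49398 bp (mean count 9.47), 117363 bp (16.9) and 134497 bp (19.3) from the start site. Closed and opened peaks thus occurred side by side downstream, and the opened ones rested on fewer reads than the closed promoter peak. At least as many closed and at most as many opened peaks as at *Cartpt* were assigned to 1154 protein-coding genes.

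*Npy* (ENSMUSG00000029819.6, chr6:49822710-49829507, plus strand) encodes neuropeptide Y, a peptide of sympathetic and cortical neurons. It is an isolated gene with the nearest start site over 357 kb, and its 6 listed peaks were spread over this stretch, none of them at the promoter. The strongest, with a mean count of 208, was closed and centred 165960 bp upstream (chr6:49656494-49657005), and its mean count exceeded that of 97.8% of all closed peaks. A closed neighbour with a mean count of 57.2 was centred 167955 bp upstream (chr6:49654570-49654940), with a gap of 1553 bp between the edges of these peaks. The closed peak nearest to *Npy* was centred 3992 bp upstream (chr6:49818601-49818834, mean count 12.8) and the last closed peak 134448 bp downstream (chr6:49957036-49957280, mean count 19.8). The opened peaks lay 29995 bp upstream (chr6:49792575-49792854, mean count 43.7) and 143651 bp downstream (chr6:49966135-49966587, mean count 45.0), and were the opened peaks with the most reads among the 6. Both directions thus occurred in the surroundings of *Npy*, at sites far from the gene for all but the weak peak at 3992 bp. At least as many closed and at most as many opened peaks were assigned to 1676 protein-coding genes.

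The strongest closed and the strongest opened peak of *Npy* are shown for contrast as their central 300 bp on the plus strand (GRCm38.p6; chr6:49656600-49656899 and chr6:49966211-49966510). Capitals mark AP-1 motifs (TGACTCA or TGAGTCA) and E-boxes (CAGCTG) in the closed peak, and in the opened peak the TEAD motif GGAATG or its reverse complement CATTCC, which factors of the Hippo pathway bind. The opened peak also held 1 E-box outside the printed stretch, and the other opened peak of *Npy* held 1 AP-1 motif.
Npy closed peak: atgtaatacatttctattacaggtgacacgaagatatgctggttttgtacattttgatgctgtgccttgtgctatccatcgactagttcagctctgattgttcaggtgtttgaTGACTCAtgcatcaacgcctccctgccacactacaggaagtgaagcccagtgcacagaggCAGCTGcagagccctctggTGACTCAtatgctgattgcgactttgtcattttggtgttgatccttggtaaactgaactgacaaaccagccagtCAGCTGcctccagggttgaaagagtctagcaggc
Npy opened peak: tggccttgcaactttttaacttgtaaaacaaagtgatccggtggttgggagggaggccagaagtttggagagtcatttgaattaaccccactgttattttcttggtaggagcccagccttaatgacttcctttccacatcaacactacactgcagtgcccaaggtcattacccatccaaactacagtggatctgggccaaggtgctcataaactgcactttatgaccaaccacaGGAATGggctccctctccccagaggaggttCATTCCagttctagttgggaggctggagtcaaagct

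A single closed peak was assigned to each of *Cck*, *Nts* and *Vip*. *Cck* (ENSMUSG00000032532.7, chr9:121489824-121495694, minus strand) encodes cholecystokinin, a gut hormone and brain peptide, and its peak was centred 12679 bp upstream (chr9:121508245-121508501, mean count 21.1). *Nts* (ENSMUSG00000019890.4, chr10:102481756-102490486, minus strand) encodes neurotensin, and its peak lay 45122 bp downstream of the start site (chr10:102445290-102445437, mean count 11.0) in sequence that is 83.1% annotated repeat. *Vip* (ENSMUSG00000019772.5, chr10:5639218-5647617, plus strand) encodes vasoactive intestinal peptide, a relaxant of airway smooth muscle, and its peak was centred 68817 bp downstream (chr10:5707824-5708246, mean count 25.3). None of these 3 peaks lay at a promoter, and their mean counts were below the median of all closed peaks, 25.8.

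*Grp* (ENSMUSG00000024517.17, chr18:65872820-65886596, plus strand) encodes gastrin-releasing peptide, the mammalian counterpart of amphibian bombesin and a growth factor for SCLC cells. Its promoter peak (chr18:65873329-65873747, mean count 44.4) was centred 490 bp downstream of a start site, inside the gene. The other pair of closed peaks lay just past the far end of the gene, from 1418 to 1968 bp beyond it, at chr18:65888014-65888195 (mean count 38.4) and chr18:65888300-65888564 (mean count 48.2), with 104 bp between them. The 3 peaks therefore rested on similar numbers of reads. An antisense transcript, AC152076.4, overlaps all 3. Over the whole peak, each held at least 1 E-box of the form CAGCTG, a motif of neural and neuroendocrine basic helix-loop-helix factors, and the last held 2. The E-box of the promoter peak lies outside its central 200 bp, a window in which 22.6% of all closed peaks held an E-box. The share of all closed peaks with an E-box over the whole peak was not counted.

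*Tac1*, the precursor of substance P and neurokinin A (ENSMUSG00000061762.12, chr6:7554879-7565834, plus strand), had no listed peak in the 369 kb in which it has the nearest start site, the longest such stretch among the 10 genes. No listed peak of another gene lay within 100 kb of its start either. No listed peak was assigned to 33.2% of all protein-coding genes. Because only peaks past the authors' limits are listed, it cannot be told whether *Tac1* lacks open chromatin in both populations, is open alike in both, or differs by less than these limits.

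The mean count shows how many reads stand behind each peak. The closed peaks of the neuropeptide genes had a median mean count of 31.7 (range 9.94 to 208), and 14 of 26 lay above the median of all closed peaks (25.8). The 6 opened peaks had a median of 18.1 (range 7.68 to 45.0), and 2 of 6 lay above the median of all opened peaks (40.7). Median widths were 291 bp against 248 bp for the closed and 255 bp against 300 bp for the opened peaks. For closed peaks the ratio of the median mean counts to that of all closed peaks was 1.23. With counts per kb of peak width it was 1.00, so the higher median was not seen once width was allowed for. For opened peaks this ratio went from 0.445 to 0.498. The GC content hardly differed, with medians of 50.1 and 48.9% for closed and 51.2 and 51.1% for opened peaks.

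**Figure D3:**
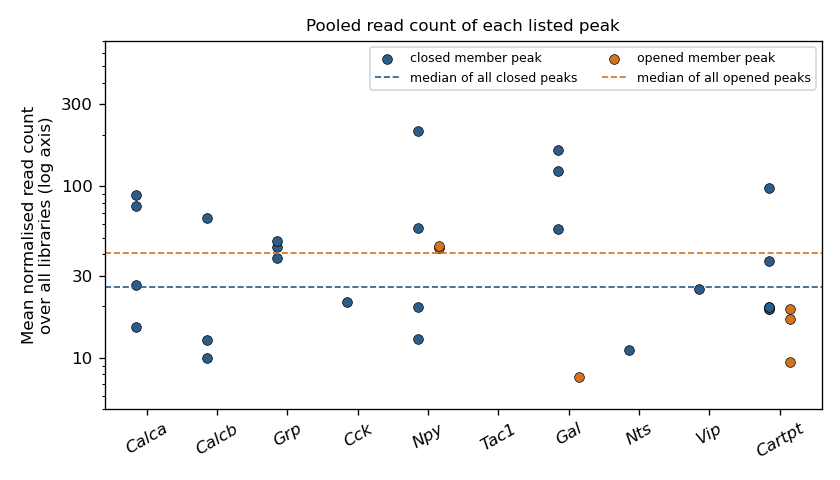
The mean normalised read count over all libraries (vertical axis, log scale) of each listed peak by gene (horizontal axis), with closed peaks in blue, opened peaks in orange, and dashed lines at the medians of all closed (25.8) and all opened (40.7) listed peaks. The strongest closed peaks belong to *Npy* (208) and *Gal* (163 and 122), and only the *Npy* peaks (43.7 and 45.0) among the opened ones exceed the median of all opened peaks.

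The number of peaks at a gene depends on the length of the stretch in which it has the nearest start site. This stretch ran from 54.7 kb at *Calcb* to 369 kb at *Tac1*, with a median of 47.4 kb over all protein-coding genes, and summed to 1559 kb for the 10 genes. Per 100 kb of this stretch the neuropeptide genes had 1.67 closed and 0.385 opened peaks, where all protein-coding genes together had 1.45 and 1.50. The density of closed peaks was thus 1.15 times and that of opened peaks 0.257 times the value over all genes. *Tac1* and *Npy* took up the longest stretches, and without them, an alternative added after the values were seen, these ratios were 1.82 and 0.321. The opened peaks were therefore sparse with or without these genes, while how far the closed peaks exceeded the value over all genes depended on them. *Calcb* (5.48 closed peaks per 100 kb), *Calca* (5.14) and *Grp* (4.32) were the densest, above 92.5%, 91.6% and 89.0% of all protein-coding genes. *Nts* (1.45), *Npy* (1.12), *Vip* (0.944) and *Cck* (0.883) lay above 68.4%, 65.0%, 63.2% and 62.6% of them, where the median over all genes was 0, and *Tac1* had none. In windows of 100 kb to each side of the start sites, whichever gene the peaks were assigned to, the values were 2.55 closed and 1.20 opened peaks per 100 kb for the 10 genes and 1.59 and 3.08 for all genes. Such windows overlap, and the 7 closed peaks between *Calca* and *Calcb* enter the first of these values for both genes.

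The promoters of the neuropeptide genes were then compared in sequence. The RefSeq promoter windows of GRCm38.p6 (250 bases before to 50 after the start) held 8 of the 10 genes, all but *Calcb* and *Grp*. The CRE core TGACG, searched on both strands, was present in 7 of these 8 windows, all but that of *Npy*, and in 23.0% of the windows of 27025 genes. The complete CRE, TGACGTCA, which contains the core on both strands, was found only at *Cartpt*, and in 2.03% of all windows. Among the closed promoter peaks, the central 300 bp held the core in 4 of 4 (*Calca*, *Grp*, *Gal* and *Cartpt*) and in 21.1% of the 2663 closed promoter peaks of protein-coding genes. This count depends on the window, with 2 of 4 (against 16.4%) in the central 200 bp and 0 of 4 (against 9.80%) in the central 100 bp. The core was thus also present at *Cck*, *Tac1*, *Nts* and *Vip*, whose promoters had no listed peak. The TATA box TATAAA was found only at *Vip* (15.7% of all windows) and the TEAD motif in 0 of 8 windows (16.6%). This comparison was chosen after the matches were seen, and a match is a description of the letters and not evidence of a bound factor. The matches are shown with 10 bases to each side, read in the direction of the gene, with the match in capitals (TGACG or its reverse complement CGTCA) and the position of its first base relative to the RefSeq start site.
Calca at -65: agcacagaggTGACGcaatctgtct
Cck at -47: tgctggactgCGTCAgcactgggta
Tac1 at -197: cctaaaattgCGTCAtttcgaacac
Tac1 at -43: tctacaggctCGTCAcgcctgagat
Gal at 20: gctgagccggTGACGcggcagctcc
Nts at -166: tagggaagatCGTCActttccatca
Vip at -79: atcactactgTGACGtctttcgggg
Cartpt at -112: cggcgggcatTGACGTCAaacggcagcg

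Of these matches, those of *Calca* (chr7:114636408-114636432), *Gal* (chr19:3414511-3414535) and *Cartpt* (chr13:99900778-99900805), all on the minus strand of GRCm38.p6, lay inside the closed promoter peaks. Positions count from the RefSeq start sites, relative to which the match of *Gal* lies downstream and the others upstream. Relative to the GENCODE gene starts given above, the match of *Cartpt* and the second match of *Tac1* also lie downstream. Those of *Cck* (chr9:121495727-121495751), *Tac1* (chr6:7554854-7554878 and chr6:7555008-7555032), *Nts* (chr10:102490570-102490594) and *Vip* (chr10:5639129-5639153) lay in no listed peak.

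In the central 200 bp of the closed peaks, motif shares at the neuropeptide genes were near those of all closed peaks for most of the 12 motifs searched. The E-box CAGCTG was found in 7 of 26 (26.9%, against 22.6% of all closed peaks) and the AP-1 motif TGACTCA in 5 of 26 (19.2%, against 21.2%). The SOX motif ACAAAG was found in 6 of 26 (23.1%, against 22.3%), and the NFI motif TTGGCA in 4 of 26 (15.4%, against 13.4%). GGACAG, which forms the right part of the motif of the neuronal repressor REST, was found in 5 of 26 (19.2%, against 18.02%), and the left part, TTCAGCACC, in 0 of 26 (against 0.326%). TGGGAA, the motif of the Notch effector RBPJ, was found in 3 of 26 (11.5%, against 16.3%), the FOX motif TGTTTAC in 1 of 26 (3.85%, against 9.71%), and the CRE core in 2 of 26 (7.69%, against 12.1%). The NKX2 motif CACTTGA was found in 0 of 26 (against 5.04%). The TEAD motif was found in 0 of 26, against 8.77% of all closed peaks and 18.2% of all opened peaks. No test of these shares was made, and 26 peaks leave wide intervals (13.7 to 46.1% for the E-box, Wilson, counting error only). Some shares of the 26 peaks depend on the window. Over the whole peak they were 3.85% for TEAD, 19.2% for the CRE core and 26.9% for RBPJ. In the central 100 bp they were 15.4% for the E-box and 0% for the CRE core and the right part of the REST motif. In the opened peaks, RBPJ matches were found in 3 of 6 (20.7% of all opened peaks) and matches of TEAD (18.2%), AP-1 (8.45%), the E-box (12.02%) and the right part of the REST motif (13.8%) in 1 of 6 each.

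Individual peaks stood out by the number of matches. At least 3 AP-1 motifs in the central 500 bp were found in 2 of the 5 closed peaks of that width or more at the neuropeptide genes (the strongest closed peaks of *Npy* and *Gal*), and in 0.984% of the 2845 closed peaks of at least 500 bp. The central 300 bp printed above show all 3 motifs at *Gal* but only 2 at *Npy*. At least 3 E-boxes in the central 400 bp were found in 1 of 8 (the *Vip* peak), against 1.24% of 6437 closed peaks. At least 2 TEAD motifs were found in the single opened peak of at least 400 bp (that of *Npy* at 143651 bp downstream), against 4.55% of 13644 opened peaks. These counts were chosen after the matches were seen and are descriptions of single peaks.

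The other genes of the neuropeptide system were described in the same way. Of 47 other neuropeptide and related peptide hormone precursors, 36 had a listed peak, with 108 closed and 88 opened peaks (55.1% closed). This is near the 49.2% of all listed peaks. More closed than opened peaks were found at 21 of the 47, more opened at 12, and no listed peak at 11. Over all 21840 protein-coding genes these numbers were 5468, 8002 and 7259. Of the 47 precursors, 8 had a closed promoter peak, against 8.45% of all protein-coding genes. These were *Apln* (apelin, 5 closed and 0 opened peaks in all), *Iapp* (amylin, 1 and 0), *Nmu* (neuromedin U, 3 and 0), *Nppa* and *Nppb* (natriuretic peptides, 6 and 1, and 3 and 0), *Prok2* (prokineticin, 15 and 16), *Qrfp* (4 and 0) and *Trh* (thyrotropin-releasing hormone, 4 and 0). Opened promoter peaks were found at 6, *Adm* (adrenomedullin, 1 closed and 5 opened peaks), *Edn1* and *Edn2* (endothelins, 0 and 21, and 7 and 6), *Ghrl* (ghrelin, 0 and 1), *Kiss1* (kisspeptin, 0 and 2) and *Penk* (proenkephalin, 0 and 1). *Edn1* alone had 3 opened promoter peaks. Over all protein-coding genes, 26.6% had an opened promoter peak. Without a promoter peak, *Adcyap1* (PACAP, 9 and 0), *Npvf* (9 and 0) and *Crh* (corticotropin-releasing hormone, 6 and 2) had mostly closed peaks, *Tac4* (a tachykinin, 1 and 9) and *Uts2* (urotensin, 2 and 5) mostly opened ones, and *Edn3* (an endothelin, 6 and 5) many of both. Both directions thus occurred among the other precursors. These numbers are not set against the stretch in which a gene has the nearest start site. It was 1828 kb at *Adcyap1*, 418 kb at *Npvf*, 156 kb at *Crh* and 314 kb at *Edn1*, with a median of 47.4 kb over all protein-coding genes.

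The list of receptors of the 10 peptides, 26 genes with accessory proteins, had 69 closed and 39 opened peaks (63.9% closed, against 49.2% of all listed peaks). It also holds *Nmbr*, the receptor of neuromedin B, which is not 1 of the 10 peptides. More closed peaks were found at 12 genes, more opened at 5 and no listed peak at 6. Closed promoter peaks were found at 6 of the 26, against 8.45% of all protein-coding genes. They were *Npy1r* (10 closed and 0 opened peaks) and *Npy5r* (4 and 0), receptors of neuropeptide Y, *Galr1* (galanin, 8 and 0), *Tacr1* (substance P, 10 and 0), *Cckbr* (cholecystokinin and gastrin, 5 and 0) and *Ramp3* (an accessory protein of calcitonin family receptors, 1 and 0). Opened promoter peaks were found at *Cckar* (cholecystokinin, 3 closed and 12 opened peaks), *Ramp1* (the accessory protein of the CGRP receptor, 1 and 7), *Sort1* (sortilin, which binds neurotensin, 0 and 3) and *Vipr1* (vasoactive intestinal peptide, 2 and 4). An opened promoter peak was thus present at 4 of the 26, against 26.6% of all protein-coding genes. The receptor pair of cholecystokinin and the accessory proteins *Ramp1* and *Ramp3* went in opposite directions. The core of the CGRP receptor, *Calcrl*, had 1 opened peak, and the GRP receptor, *Grpr*, had 1 closed and 1 opened peak. Of the receptors without a listed promoter peak, *Nmbr* (neuromedin B receptor, 13 and 5) had the most closed peaks, followed by *Ntsr2* (neurotensin, 3 and 2), *Galr3* (galanin, 2 and 2) and *Tacr2* (neurokinin A, 2 and 1). Stretches also differed among the receptors, with 1509 kb at *Nmbr*, 744 kb at *Galr1* and 86.2 kb at *Npy1r*.

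Genes that process and store the peptides also lay mostly on the closed side. The 13 granins and processing genes had 89 closed and 22 opened peaks (80.2% closed, against 49.2% of all listed peaks), and all had a listed peak. Closed promoter peaks were found at 9 of them, *Chga*, *Chgb*, *Scg2* and *Scg3* (granins of the dense core vesicle), *Pcsk1* and *Pcsk2* (prohormone convertases), *Pcsk1n* (an inhibitor of the *Pcsk1* convertase), *Cpe* (carboxypeptidase E, which trims the cut peptides) and *Resp18*. The share of all protein-coding genes with a closed promoter peak was 8.45%. *Pcsk2* had 16 closed and 0 opened peaks, *Cpe* 14 and 0, *Pcsk1* 13 and 4, and *Scg2* 10 and 0. *Pam*, which amidates the C-terminus of most of these peptides, had 19 closed and 7 opened peaks without a promoter peak. *Cpd* (a carboxypeptidase of many tissues) had 1 opened promoter peak, *Vgf* had 2 opened peaks and no closed one, *Scg5* (a chaperone of *Pcsk2*) had 2 closed peaks and no opened one, and *Chga* had more opened (8) than closed (6) peaks although both of its listed promoter peaks were closed.

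**Figure D4:**
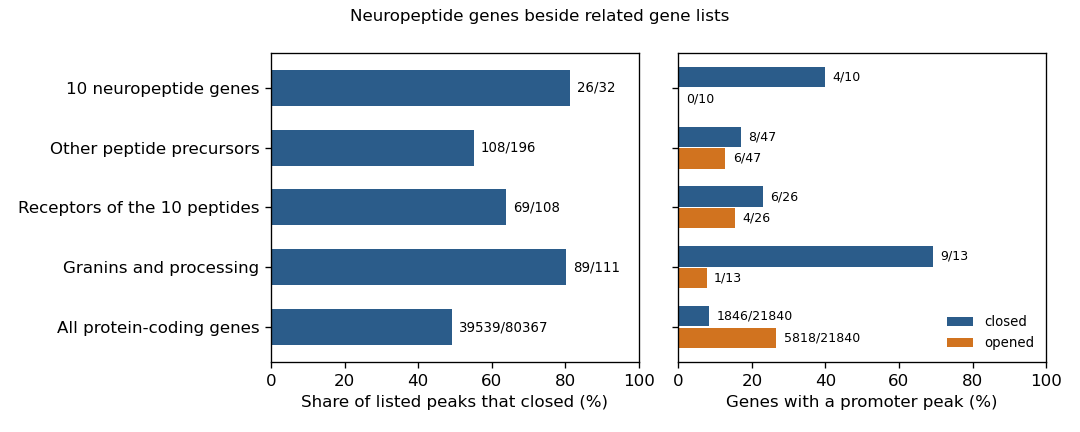
Left, the share of listed peaks that closed (horizontal axis, percent) for the 10 neuropeptide genes and the related gene lists, with closed and all listed peaks as counts beside each bar. Right, the share of genes with a closed (blue) or an opened (orange) promoter peak (horizontal axis, percent), with the number of genes beside each bar; the neuropeptide genes had closed promoter peaks at 4 of 10 and opened ones at 0 of 10, and the granins and processing genes at 9 and 1 of 13.

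The identity of the sorted cells was read from marker genes. The PNEC markers (8 genes) had 56 closed and 11 opened peaks (83.6% closed, against 49.2% of all listed peaks). Among them, *Chga* had closed promoter peaks as given above, while *Syp* and *Dll3* had no listed peak. The 10 neuroendocrine transcription factors had 140 closed and 44 opened peaks (76.1% closed). *Nkx2-1* (5 closed and 6 opened peaks) and *Sox2* (15 and 18) among them had more opened peaks. The 7 club cell markers had 4 closed and 29 opened peaks (12.1% closed), and *Scgb1a1* had 3 closed and 12 opened peaks, 2 of them at its promoter. In bulk samples, fewer cells of a type and less accessible chromatin per cell cannot be told apart.

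Several peptides are also made by nerves, endothelium or immune cells. The 6 peripheral neuron markers had 7 closed and 2 opened peaks, with *Th* (5 closed) on the closed side, *Dbh* (2 opened) on the opened side, and no listed peak at *Prph*, *Trpv1* and *Scn10a*. The 6 endothelial markers had 50 closed and 16 opened peaks (75.8% closed), of which *Cdh5* held 23 and 2, while *Pecam1* had 1 of each. The 6 fibroblast markers had 13 closed and 10 opened peaks, with more closed peaks at *Col1a2* (2 and 0), *Pdgfra* (5 and 0) and *Dcn* (6 and 3), more opened peaks at *Col1a1* (0 and 7), and none at *Col3a1* and *Pdgfrb*. The 8 leukocyte markers had 7 closed and 18 opened peaks (28.0% closed), with 5 and 11 at *Ptprc*. The part of such cells in the closed peaks of the neuropeptide genes was not tested.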

How the data were processed

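Cells were compared as GFP-high against GFP-neg. Per the paper's methods and the submitters' processing notes, the authors aligned reads to mm10 with Bowtie2 2.3.4.1, removed duplicates with Samtools, called peaks with MACS2, merged them, counted reads per peak with bedtools and compared the groups with DESeq2 1.28.1. Listed peaks passed an adjusted p of 0.001 and an absolute log2 fold change of 1. For each listed peak the authors gave 1 signal value, its read count after scaling by DESeq2 size factors, averaged across every library. The other deposited columns hold the authors' log2 fold changes with standard errors, statistics and p-values, and were not used. It is not stated in the sources used here whether lanes, or pairs of 1 mouse, were summed.

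From the files, only the position, the list and the mean count of each peak were taken. Peaks were assigned by their centre to the nearest protein-coding start site (basic GENCODE annotation, all start sites of a gene). Promoter peaks lay within 1 kb, sequences came from GRCm38.p6 and RefSeq, and 12 motifs were searched as exact strings on both strands in the central 200 bp, which reach past narrower peaks. Positions are 1-based. Wilson intervals (95%) cover counting error only. Python 3.11.15, numpy 2.4.6, pandas 2.3.3, scipy 1.17.1, pysam 0.24.0 and matplotlib 3.10.9 were used, and assignment and motif counts were tested on simulated data.

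The 10 genes and all gene lists were chosen with earlier results of these data known. All 10 genes were named, and of the other precursors, receptors and processing genes those with a promoter peak and otherwise the 3 with the most closed and the 3 with the most opened peaks. *Calcrl*, *Grpr*, *Th*, *Dbh*, *Cdh5*, *Col1a2*, *Pdgfra*, *Dcn*, *Nkx2-1*, *Sox2* and marker genes without a listed peak were named after their values were seen. Some single marker genes are not reported here. Alternatives were other assignments of peaks, promoter distances, windows, a minimum mean count, merging of close peaks, and leaving out each gene.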

Additional observations from a re-analysis of the deposited data

How the results depend on the processing

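The share of closed peaks at the neuropeptide genes stayed between 75.0 and 100% under all alternatives tried, and of 84 alternative values 16 moved past the tolerance set for them, which for a share is its Wilson interval and so is wide. With 1 start site per gene there were 36 closed and 12 opened peaks, since *Cck* gained 2 closed and 6 opened peaks, which turned it to more opened than closed (3 and 6), and *Nts* 8 closed ones. With start sites of any transcript there were 16 closed and 3 opened peaks, within 100 kb 3 opened peaks, within 10 kb of the gene body 13 closed and 0 opened peaks (100% closed), and with a mean count of at least 20 there were 16 closed and 2 opened peaks. Leaving out each gene in turn gave 20 to 26 closed peaks, 3 to 6 opened peaks (3 without *Cartpt*) and closed shares of 78.6 to 87.0%. The density of closed peaks relative to all genes, 1.15, became 1.82 without *Tac1* and *Npy* (added after the data were seen), and that of opened peaks, 0.257, became 0.389 with 100 kb to each side of the start sites. In the central 100 bp the shares of closed peaks with the CRE core, FOX and right REST motifs were 0%, and over the whole peak the FOX share was 0%, because the reported match lies outside a peak narrower than 200 bp. Within their Wilson intervals, the E-box share went from 26.9 to 15.4% and the SOX share from 23.1 to 11.5% in the central 100 bp, and over the whole peak the CRE core went from 7.69 to 19.2%, RBPJ from 11.5 to 26.9%, and the complete CRE and TEAD from 0 to 3.85%. The number of genes with a promoter peak kept within 3 to 4 (closed) and 0 (opened) for other promoter definitions. No paired analysis was possible because the deposited lists hold no value per library. For the same reason no library could be left out, and neither depth nor the spread between mice can be read from these values.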
